A study of Mus musculus with 8 samples.

Results

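The genes described here are a group of 10 that sense or process broken DNA: the poly(ADP-ribose) polymerases Parp1, Parp2 and Parp3, the damage kinases Atm and Chek2, the scaffold Xrcc1, the Ku subunits Xrcc5 and Xrcc6, and the double-strand break factors Brca1 and Mre11a. They were taken as the non-control probes whose gene name in the scanner files equalled one of these symbols, which gave 11 of 39429 probes, 1 for each gene and 2 for Atm. The group was put together with an earlier result of the same arrays in view, in which the Parp3 difference between genotypes already stood out, so the differences between genotypes are given for these genes as a description and carry no p-value. A probe was kept if all arrays of WT, or all arrays of CKO, read it well above background, and 8 of the 10 genes had such a probe. Chek2 and Brca1 did not.

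The RNA came from whole hippocampus of C57BL/6 mice aged 3 to 6 months. Both genotypes carried loxP sites on both copies of Ctcf, the gene for a DNA-binding protein with zinc fingers that, together with cohesin, anchors chromatin loops. The animals called WT had no Cre and the animals called CKO carried Camk2a-Cre, whose promoter is active in excitatory neurons of the forebrain, so the other cells of the tissue kept the gene and Cre itself was present on one side of the comparison alone. Each genotype had 3 pools of 3 mice, numbered alike with the same sex and age makeup: pool 1 held 2 females and 1 male of 19 to 23 weeks, pool 2 held 3 females of 18 to 19 weeks and pool 3 held 3 males of 15 to 17 weeks. The mice had been through behavioural testing before the tissue was taken. Both genotypes had their pool 1 on 2 arrays, which were averaged, so n is 3 pools per genotype throughout.

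PARP enzymes build ADP-ribose onto proteins, and onto themselves, when they meet a break in DNA, and the modification recruits repair factors such as XRCC1. PARP1 makes most of the polymer, PARP2 shares its work at single-strand breaks, and PARP3 adds single ADP-ribose units and is linked to double-strand break repair by end joining. Double-strand breaks are bound by the MRE11 complex, which activates the kinase ATM and through it CHEK2 and p53, or by the Ku heterodimer of XRCC6 (Ku70) and XRCC5 (Ku80), which opens end joining. BRCA1 acts in homologous recombination, a route used by dividing cells, and most neurons of the adult hippocampus no longer divide.

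Levels are the log2 processed signal of a probe less that of the array's 75th percentile (log2 units below), so a probe at 0 is as bright as the 75th percentile of its array. Each probe is compared with itself in other pools and never with another probe. The 75th percentile ran from 2112 to 5104 intensity units, with both second arrays of pool 1 the dimmest (2112 in WT and 2883 in CKO), 0 spots were saturated, and the share of spots well above background ran from 59.2% to 66.0%. The second array of WT pool 1 stood apart from its mate: across all kept probes the pair differed by a median of 0.51 log2 units (r = 0.954), against 0.22 (r = 0.989) for both arrays of CKO pool 1. Ctcf itself was at 0.83, 1.12 and 1.04 in WT pools 1 to 3 and at 0.18, 0.16 and 0.05 in CKO pools. The genotypes did not overlap, with a difference of -0.87 (SE 0.13) and a limma adjusted p of 0.143, or 0.0294 with pool number as a block. Whether the Ctcf probe lies inside the deleted part of the gene was not analysed here. Of 12 excitatory neuron markers of the hippocampus, 11 were measured, and Prox1 had no kept probe.

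The polymerase probes come first, with the sequences the values rest on. Probe starts below are positions in the RefSeq transcript as the array files give them, so each probe reads an exonic stretch of that transcript. Each probe is 60 bases long and is printed whole for Parp1 and Parp2, and as its first 30 bases for Parp3, whose probe starts at base 2514 of NM_145619. The Parp1 probe starts at base 3021 of NM_007415 and the Parp2 probe at base 1040 of NM_009632.
Parp1 probe: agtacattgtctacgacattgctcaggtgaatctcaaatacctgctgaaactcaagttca
Parp2 probe: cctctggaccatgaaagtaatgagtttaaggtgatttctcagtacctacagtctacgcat
Parp3 probe, first 30 bases: ttcaaacaacgccattctttaaggctgact
The Parp probes read separate stretches of separate transcripts, and none holds a run of GAA repeats longer than 3 bases.

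Parp3 was higher in every CKO pool than in any WT pool. Its level was -3.04, -3.20 and -2.91 log2 units in WT pools 1, 2 and 3, and -1.78, -1.74 and -1.91 in CKO pools 1, 2 and 3. The gap between the highest WT pool and the lowest CKO pool was wider than the spread within either genotype. The means were -3.05 ± 0.14 (SD, n = 3) in WT and -1.81 ± 0.09 in CKO, a difference of 1.24 (SE 0.17), or 2.37-fold. The probe was well above background on all 8 arrays. The difference within same-numbered pools was 1.26, 1.46 and 1.01 for pools 1, 2 and 3, so that the pools of females, of males and of both each had the higher signal in CKO. Within slide 1 it was 1.35 and within slide 2 it was 1.15, with 2 pools per genotype on each slide. Slide 1 held pools 1 and 2, and slide 2 held pool 3 and the second arrays of pool 1. Values within slides, here and below, therefore share pool 1 and are not separate replicates. Leaving out whole pools tests something else. Leaving out 1 pool at a time moved the Parp3 difference between 1.17 and 1.31. Among the 18335 genes measured it was the 47th highest difference. Differences of at least 1 log2 unit in either direction were held by 0.911% of genes.

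Parp1, the main polymerase at single-strand breaks, was also higher in all CKO pools than in all WT pools, by much less. Its level was 0.77, 0.99 and 0.80 in WT pools 1 to 3 and 1.20, 1.08 and 1.39 in CKO pools 1 to 3. The closest pools were WT pool 2 and CKO pool 2, which lay 0.09 apart. The means were 0.85 ± 0.12 (SD, n = 3) and 1.22 ± 0.16, a difference of 0.37 (SE 0.13) or 1.29-fold. It was 0.23 within slide 1 and 0.54 within slide 2. Without CKO pool 3 it was 0.28, and without CKO pool 2 it was 0.44.

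Parp2, the close relative of Parp1, overlapped between genotypes. Its level was -0.97, -0.54 and -0.72 in WT pools and -0.85, -0.70 and -1.002 in CKO pools. The lowest pool of all was a CKO pool and the highest a WT pool, and the other 4 were mixed. The difference was -0.11 (SE 0.17), smaller than its error.

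**Figure D1:**
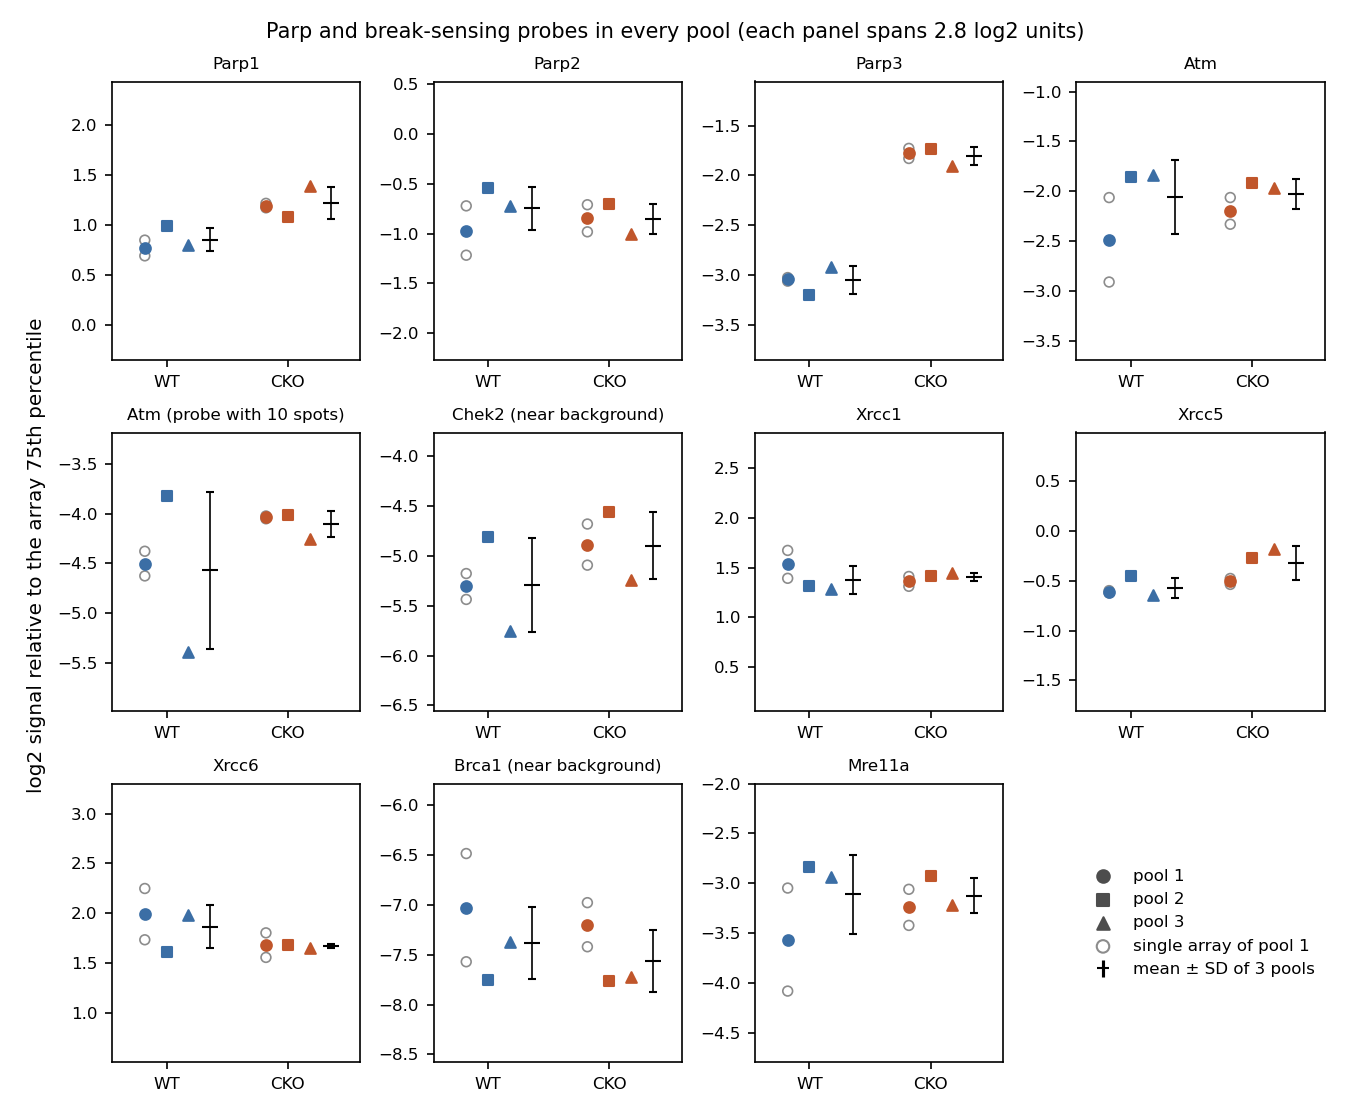
Signal of each probe of the 10 genes in WT (blue) and CKO (orange) pools, in log2 units relative to the array 75th percentile. Filled symbols are pools, open circles the single arrays of pool 1, and the bar beside them is the mean ± SD of 3 pools; the panels have different centres but the same height, and the Brca1 panel shows signal that is not well above background. The widest gap between genotypes is in Parp3, from -2.91 in the highest WT pool to -1.91 in the lowest CKO pool.

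Atm, the kinase that double-strand breaks activate, has 2 probes on the array. The brighter one starts at base 11260 of NM_007499 and is shown by its first 30 bases. The other starts at base 8518, is spotted 10 times on each array, and is shown whole.
Atm probe at base 11260, first 30 bases: ttgaaaggtgaaaaagactgagttagaaaa
Atm probe at base 8518: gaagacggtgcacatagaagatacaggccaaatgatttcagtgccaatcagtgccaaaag
The genes were read by their brightest probe, so the probe at base 11260 stands for Atm. It was at -2.49, -1.85 and -1.83 in WT pools 1 to 3 and at -2.20, -1.92 and -1.96 in CKO pools. The lowest value, in WT pool 1, was the mean of -2.06 on the first array and -2.91 on the second, and the latter was the lowest of all 8 arrays. Atm overlapped between genotypes, with a difference of 0.03 (SE 0.22), and without WT pool 1 the difference was -0.18.

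The repeated Atm probe shows how much of the spread comes from within an array and how much from between arrays. Its copies, 8 to 10 per array once outliers were left out, had an SD of 0.04 to 0.19 log2 units within an array. The pools, in contrast, were at -4.50, -3.82 and -5.39 in WT and at -4.04, -4.02 and -4.25 in CKO, so the WT pools spread over more than the CKO pools (SD 0.79 against 0.13, n = 3 each). In WT pool 3 all 10 copies lay between -5.57 and -5.20, below every copy on any other array. On 2 of 4 WT arrays and 4 of 4 CKO arrays it was well above background. The genotypes overlapped, with a difference of 0.47 (SE 0.37). The 2 Atm probes therefore gave differences of 0.03 and 0.47, each within 2 SE of 0.

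**Figure D2:**
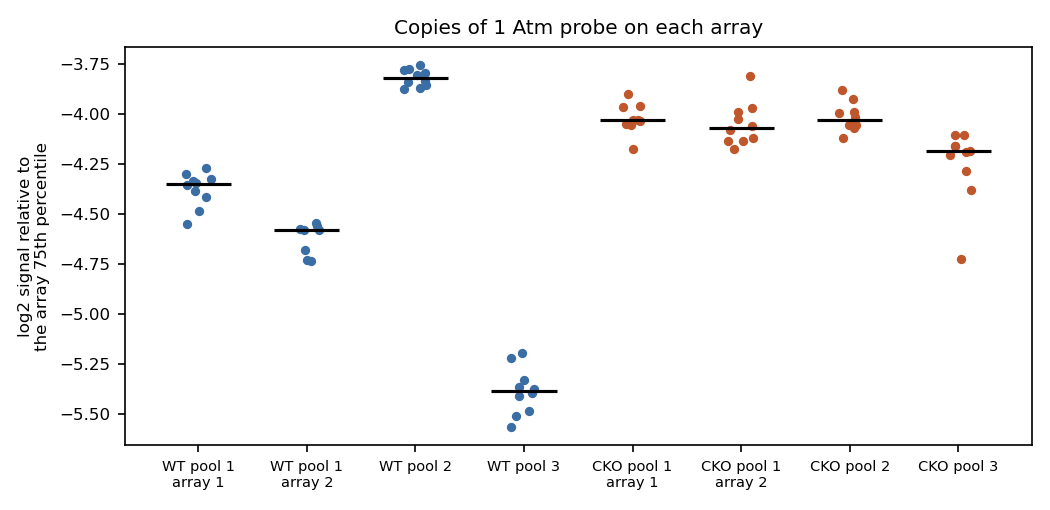
Each point is 1 copy of the Atm probe at base 8518, in log2 units relative to the array 75th percentile, on each of the 8 arrays (WT blue, CKO orange), with outlier copies left out; black lines are medians. Copies on an array lie close together, while the median of WT pool 3 (-5.39) is far below that of WT pool 2 (-3.82).

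Chek2, the checkpoint kinase that ATM phosphorylates, was close to the background. On 1 of 4 WT arrays and 2 of 4 CKO arrays its probe was well above background, so it was not kept. Its values were -5.31, -4.81 and -5.76 in WT pools and -4.89, -4.56 and -5.24 in CKO pools. They overlap, and values this close to the background have little weight.

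Xrcc1 and both Ku genes were well above background on all 8 arrays and overlapped between genotypes. Xrcc1, the scaffold that gathers single-strand break repair enzymes at ADP-ribose, was at 1.53, 1.31 and 1.28 in WT pools and at 1.36, 1.41 and 1.45 in CKO pools. The CKO pools lay inside the WT range, and the difference was 0.03 (SE 0.12). Xrcc5, which encodes Ku80, was at -0.61, -0.46 and -0.65 in WT and at -0.51, -0.27 and -0.18 in CKO. CKO pool 1 lay between the WT pools, and the difference was 0.25 (SE 0.15). Within same-numbered pools Xrcc5 was higher in CKO each time, by 0.10, 0.19 and 0.47. Xrcc6, which encodes the partner Ku70, was at 1.99, 1.61 and 1.98 in WT and at 1.68, 1.68 and 1.65 in CKO. Its CKO pools were close together (SD 0.02, n = 3), above WT pool 2 and below the other WT pools, with a difference of -0.19 (SE 0.14). The difference was -0.06 within slide 1 and -0.39 within slide 2. Both subunits of the Ku heterodimer thus had differences of opposite sign, each within 2 SE of 0.

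Mre11a, the nuclease of the complex that brings ATM to a break, was at -3.56, -2.83 and -2.93 in WT pools and at -3.24, -2.92 and -3.21 in CKO pools. WT pool 1 was the lowest, and as with Atm it was the second array that was low, at -4.08 against -3.05 on the first. That array was the 1 of 8 on which the Mre11a probe was not well above background. The difference was -0.02 (SE 0.25). Brca1 was well above background on 0 of 8 arrays, and no level or fold is given for it.

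Across the 8 measured genes, 5 differences were above 0 and 3 below, against 49.4% above 0 among all genes. The median was 0.03, against -0.0031 over all genes. In 2 of the 8, Parp1 and Parp3, the pools did not overlap, both higher in CKO, and 11.3% of all genes had pools that did not overlap (5.73% higher in CKO and 5.62% lower). None of the 8 passed an adjusted p of 0.05 in limma (0 called), a mark that 0.0273% of genes passed (5 of 18335), and 1, Parp3, passed it with pool number as a block, as 0.562% of genes did. Since the group was put together with this comparison known, nothing is read from these counts. Without Parp3, the other differences ran from -0.19 to 0.37, and 4 of the 8 were smaller than their SE.

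**Figure D3:**
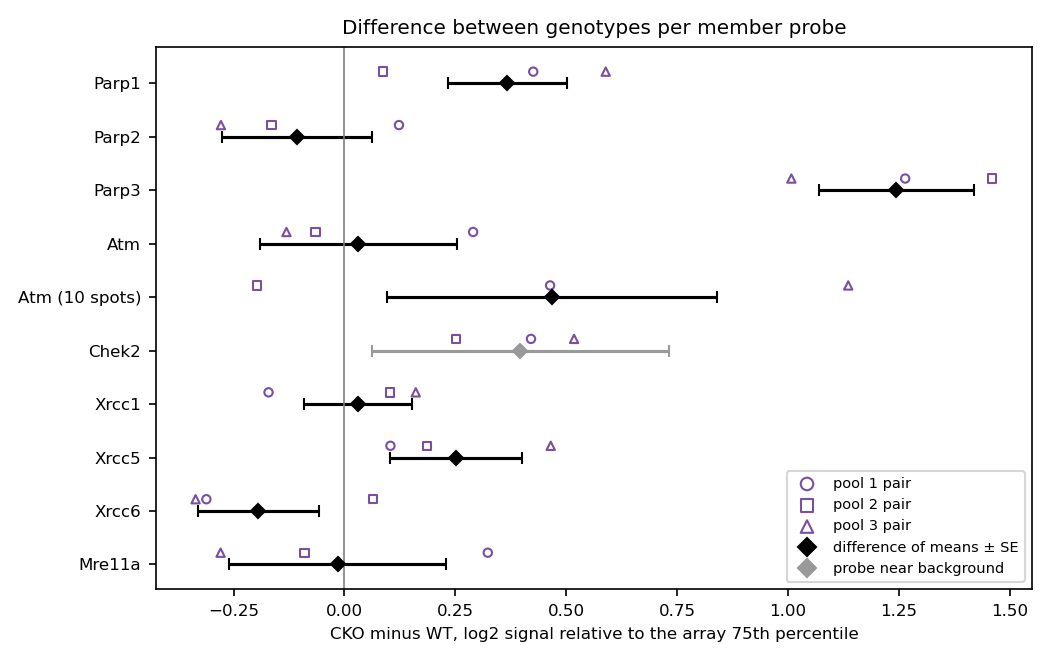
Difference between genotypes (CKO minus WT, log2 units) for each probe of the group, without Brca1, which was not well above background on any array. Diamonds are the difference of means with its SE (n = 3 pools per genotype), taken from limma for kept probes. The grey diamond, labelled near background, is Chek2, whose probe was not kept and whose SE comes from its own pool values alone. The repeated Atm probe, also close to background, was kept and is black. Open symbols are the difference within same-numbered pools. Parp3 lies at 1.24 with all 3 pairs between 1.01 and 1.46, and the other diamonds lie between -0.19 and 0.47.

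The arrays of pool 1 give a measure of technical spread that the choice of genes did not use. Over the 9 kept probes of the group the second array minus the first ran from -1.03 to 0.51 in WT pool 1 and from -0.36 to 0.25 in CKO pool 1. The median size was 0.28 and 0.10 log2 units. For Parp3 the second array differed from the first by 0.04 in WT and by 0.10 in CKO, so for this probe both arrays of a pool read nearly alike. For Mre11a and the brighter Atm probe the WT arrays differed by -1.03 and -0.85, which is larger in size than the difference between the genotype means of the same probes (-0.02 and 0.03).

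The Parp3 start region is shown because Parp3 had the widest difference of the group and Ctcf is the gene deleted. The bases are the 250 before the Parp3 start from RefSeq (GRCm38.p6; the promoter window, with 50 more bases after the start, is chr9:106476900-106477199 on the minus strand). Promoter windows were matched for 10 of 10 genes. Capitals mark a match to a loose CTCF core, searched on both strands, that asks for CCA, a pair of free bases, AG, another pair of free bases and GG.
Parp3 promoter, 250 bases before the start: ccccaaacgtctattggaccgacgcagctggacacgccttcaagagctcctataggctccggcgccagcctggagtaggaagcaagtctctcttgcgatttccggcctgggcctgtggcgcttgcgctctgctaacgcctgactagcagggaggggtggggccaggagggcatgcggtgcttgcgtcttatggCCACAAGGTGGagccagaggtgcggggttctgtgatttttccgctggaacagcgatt
The match begins 57 bases before the start and reads CCACAAGGTGG. Parp3 was 1 of 10 genes of the group with such a match, and 6.88% of 27025 mouse promoter windows of the same length had one. A stricter CTCF core of 12 letters was in 0.551% of windows and in 0 of 10 of the group. The p53 half-site was in 8.37% of windows and, in the group, in Parp3 alone, 171 bases before the start; the same bases match on both strands and count once, and they do not overlap the CTCF match. The motif letters were chosen after the Parp3 promoter had been seen, and a match is a stretch of letters and not a site. Of more general elements, CCAAT was in 8 of 10 windows (37.9% of all), the GC box GGGCGG in 5 (35.9%), and TGACG, which forms one side of a cAMP response element, in 5 (21.0%), while the full element TGACGTCA was in 0 (1.88%). The Parp3 window was 57.7% G or C, against a median of 52.7%.

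The genes beside Parp3 on chromosome 9 were compared next, since CTCF is known for bounding domains of neighbouring genes. The 3 nearest measured genes on each side were Abhd14a, Abhd14b and Pcbp4 on one side and Rrp9, Iqcf1 and Grm2 on the other. Counted in genes from Parp3, they lay at steps -4, -3 and -2, and at steps 1, 2 and 10. Genes at the steps between were not measured, so not every adjacent gene was compared. None of the 6 passed in limma over all genes (0 of 6 called, 0 with pool number as a block; 1 had an unadjusted p under 0.05). Pcbp4, an RNA-binding protein, differed by 0.17 (SE 0.12) and Rrp9, a factor for ribosomal RNA processing, by 0.21 (SE 0.16). Grm2, a presynaptic glutamate receptor, differed by 0.37 (SE 0.29), with WT pools at 1.98, 0.64 and 1.13 and CKO pools at 1.71, 1.59 and 1.56. Its CKO pools all lay inside the WT range, and without WT pool 2 the Grm2 difference was 0.07. Abhd14b was the neighbour with pools that did not overlap, at 0.84, 0.76 and 1.30 in WT and 0.56, 0.66 and 0.26 in CKO, a difference of -0.48 (SE 0.18; limma adjusted p = 0.82), or -0.31 without WT pool 3. It lies opposite in sign to Parp3. Abhd14a and Iqcf1 differed by -0.03 (SE 0.12) and -0.13 (SE 0.30), and both changed sign when 1 WT pool was left out (0.02 for Abhd14a without pool 3, 0.18 for Iqcf1 without pool 1). Over the neighbours of all 8 measured genes of the group, 0 of 48 were called, with or without the block (4 had an unadjusted p under 0.05), and 9 had pools that did not overlap, where 11.3% of all genes did.

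**Figure D4:**
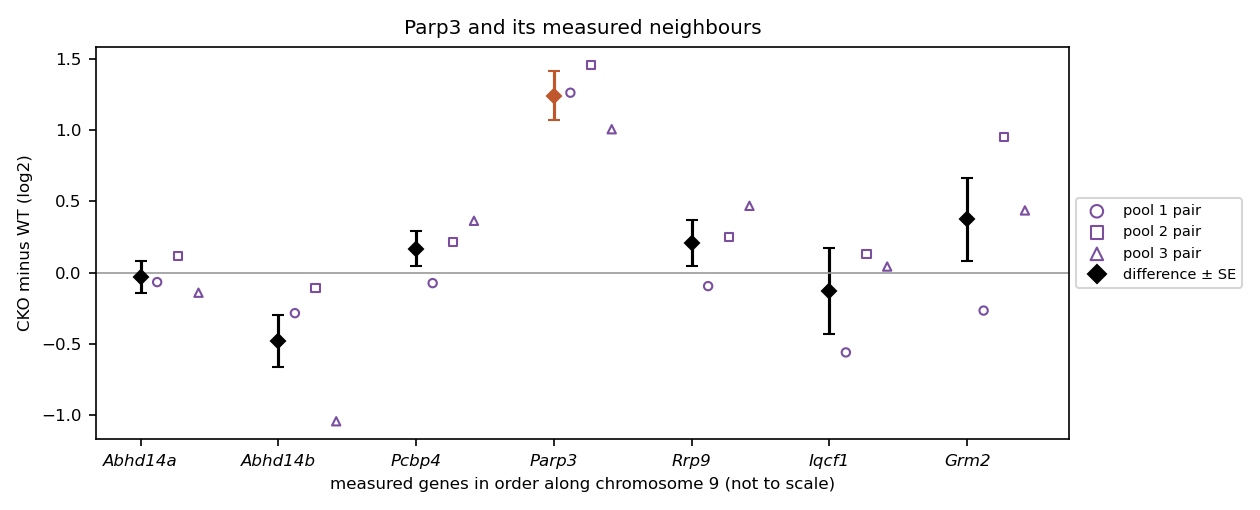
Difference between genotypes (CKO minus WT, log2 units) of Parp3 (orange) and the 3 nearest measured genes on each side, in chromosome order and not to scale. Diamonds are differences of means with the SE (n = 3 pools per genotype) and open symbols are same-numbered pools. Parp3 lies at 1.24 and its neighbours between -0.48 and 0.37.

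The genes whose profile over the 6 pools, each taken relative to its own WT mean, lay nearest that of Parp3 were Asl, Tigd3, P3h2, Zcwpw2 and Fchsd1, with root mean square distances of 0.16, 0.18, 0.21, 0.21 and 0.22 log2 units. Likeness to Parp3 was chosen on the contrast between genotypes, so each of these is high in CKO by construction. Asl, the argininosuccinate lyase of the urea cycle, was at 0.19 ± 0.09 (SD, n = 3) in WT pools and at 1.55 ± 0.10 in CKO pools. The others differed by 1.31 (Tigd3), 1.24 (P3h2), 1.32 (Zcwpw2) and 1.24 (Fchsd1). None is a gene of the break-repair lists below.

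Of cell type markers, those of hippocampal excitatory neurons, the cells that lose Ctcf, were lower in CKO for 8 of 11 measured genes, with 0 called by limma (2, C1ql2 and Wfs1, called lower with the block). Of the 6 with an unadjusted p under 0.05, 1 went the other way: Slc17a7, a vesicular glutamate transporter, was 0.35 (SE 0.14) higher in CKO. The list's mean level relative to WT ran from -0.08 to 0.09 in WT pools and from -0.40 to -0.20 in CKO pools. Its median difference was -0.09, so the lower mean was not shared by the whole list. The lower genes with an unadjusted p under 0.05 ran from -1.10 (C1ql2) to -0.36 (Calb1). Genes without such a p ran from -0.09 (Fibcd1) to 0.15 (Lmo3). Oligodendrocyte markers were higher for 9 of 10, with 0 called (2 with an unadjusted p under 0.05) and mean levels from -0.08 to 0.12 in WT and from 0.14 to 0.27 in CKO. Choroid plexus markers were higher for 12 of 12, with 0 called (2 with an unadjusted p under 0.05), at -1.17 in WT pool 1 and at 0.48 to 0.97 in the other 5 pools, in which the genotypes overlapped. Parp3 in WT pool 1 lay between the other WT pools, and any link of Parp3 to choroid plexus content was not tested. Markers of microglia were higher for 7 of 12, of astrocytes for 5 of 10, of endothelial cells for 8 of 10, of leukocytes for 7 of 8, of proliferating cells for 8 of 10 and of inhibitory neurons for 3 of 8. Again 0 were called in each list, and 0, 1, 0, 1, 1 and 1 had an unadjusted p under 0.05; with the block 1 astrocyte marker, Gfap, was called higher. In none of these 6 lists did the mean levels of the genotypes' pools separate. The part of these marker shifts in the Parp3 and Parp1 differences was not tested, and in whole tissue a change in the number of cells of a type and a change in RNA per cell cannot be told apart.

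The wider pathways were read from 6 lists that hold none of the 10. Of their genes 91 were measured, 40 higher and 51 lower in CKO, with a median of -0.04 against -0.0031 over all genes. None passed in limma (0 of 91 called; 7 had an unadjusted p under 0.05, and 5.47% of all genes did). With pool number as a block 1 passed, Cdkn1a, where 0.562% of all genes did. Pools did not overlap in 10 of the 91, near the 11.3% of all genes.

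Among 22 other enzymes that write, read or erase ADP-ribose, 21 were measured, 11 higher and 10 lower, with a median of 0.00043 and 0 called (1 with an unadjusted p under 0.05). Of the other polymerases, Tiparp, which adds single ADP-ribose units and is a target of the aryl hydrocarbon receptor, was at -0.31, -0.48 and -0.38 in WT and at 0.49, -0.40 and 0.20 in CKO. One CKO pool lay inside the WT range, and the difference was 0.49 (SE 0.22; limma adjusted p = 0.93), or 0.29 without CKO pool 1. Parp6 was at 3.95, 3.59 and 3.79 in WT and at 3.65, 2.73 and 3.59 in CKO, a difference of -0.45 (SE 0.24). CKO pool 2 stood apart, and without it the Parp6 difference was -0.16. The eraser Adprhl2, a hydrolase that removes ADP-ribose from serine, was at 1.30, 0.78 and 0.55 in WT and at 0.46, 0.32 and 0.22 in CKO. Its pools did not overlap, with a difference of -0.54 (SE 0.20; limma adjusted p = 0.796), or -0.33 without WT pool 1. Adprh, which removes ADP-ribose from arginine, differed by -0.16 (SE 0.11), its CKO pools also below all WT pools. Parg, which trims the polymer, differed by 0.08 (SE 0.13); it falls outside the rule by which genes of the lists are named and was chosen for its role after its value was seen.

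Base excision and single-strand break repair, the route PARP1 and XRCC1 serve, had 17 of 20 genes measured, 7 higher and 10 lower, with a median of -0.05 and 0 called (0 with an unadjusted p under 0.05). Lig3, the ligase that binds XRCC1, was at -2.09, -1.64 and -1.12 in WT and at -1.94, -2.11 and -1.98 in CKO, a difference of -0.39 (SE 0.25) with overlapping pools, and of -0.14 without WT pool 3. Polb, the gap-filling polymerase, differed by 0.20 (SE 0.13), and the glycosylases Mutyh and Neil1 by -0.22 (SE 0.15) and -0.15 (SE 0.17).

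Of 9 further end-joining genes 8 were measured, 5 higher and 3 lower, with a median of 0.03 and 0 called (0 with an unadjusted p under 0.05). Polm, a polymerase of this route, was at -0.15, -0.44 and -0.09 in WT and at -0.45, -0.44 and -0.59 in CKO. WT pool 2 and CKO pool 2 were nearly equal, and the difference was -0.27 (SE 0.15). Xrcc4, the partner of DNA ligase IV, differed by -0.20 (SE 0.22), the nuclease Dclre1c (Artemis) by 0.26 (SE 0.31) and Tdp2, which frees trapped topoisomerase ends, by 0.18 (SE 0.21). Without WT pool 3 the Dclre1c difference was -0.05, and without WT pool 1 the Tdp2 difference was -0.05.

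Break sensing and checkpoint genes besides Atm, Chek2 and Mre11a had 18 of 19 measured, 4 higher and 14 lower, with a median of -0.08 and 0 called (0 with an unadjusted p under 0.05). The ubiquitin ligase Rnf8, which acts downstream of ATM on chromatin beside a break, was at 0.59, 1.01 and 1.25 in WT and at 0.62, 0.79 and 0.61 in CKO. Its pools overlapped, with a difference of -0.27 (SE 0.18), or -0.12 without WT pool 3. Rif1 and Mad2l2, which protect broken ends from resection, differed by -0.20 (SE 0.18) and -0.11 (SE 0.14), and the acetyltransferase Kat5 by -0.16 (SE 0.23). The Kat5 difference turned to 0.09 without WT pool 1. Although 14 of 18 were lower, the list's mean level ran from -0.09 to 0.14 in WT pools and from -0.12 to 0.16 in CKO pools, so the pools overlapped.

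Homologous recombination, the route of Brca1, had 17 of 25 genes measured, 6 higher and 11 lower, with a median of -0.03 and 0 called (2 with an unadjusted p under 0.05). The difference of greatest size was in Eme1, which with Mus81 forms a nuclease that cuts branched DNA. Eme1 was at -3.11, -3.18 and -3.31 in WT and at -4.21, -4.15 and -4.57 in CKO, every CKO pool below every WT pool. Its difference was -1.11 (SE 0.21; limma adjusted p = 0.187), and it was called on first arrays alone (limma adjusted p = 0.0337) and without the second array of WT pool 1 (limma adjusted p = 0.0417). Its partner Mus81 was at 0.22, -0.19 and -0.25 in WT and at -0.44, -0.44 and -0.71 in CKO, also without overlap, a difference of -0.46 (SE 0.17; limma adjusted p = 0.818). Both subunits of this nuclease were thus lower in all CKO pools, though neither passed in the test over all pools and arrays. They were named for their small unadjusted p. Pools did not overlap in 3 of the 17 genes (Xrcc2, the other one, was higher in CKO), where 11.3% of all genes did not. Xrcc2 differed by 0.15 (SE 0.17).

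The p53 pathway, at the end of the chain from ATM and CHEK2, had 10 of 12 genes measured, 7 higher and 3 lower, with a median of 0.20 and 0 called (4 with an unadjusted p under 0.05). Its mean level ran from -0.05 to 0.09 in WT pools and from 0.29 to 0.32 in CKO pools. Genes of the list without an unadjusted p under 0.05 differed by -0.24 to 0.21, with overlapping pools. The higher mean was therefore not shared by the whole list. Cdkn1a, the cell cycle inhibitor p21, was at -2.53, -2.77 and -2.70 in WT and at -0.74, -2.10 and -0.82 in CKO. CKO pool 2 was nearest the WT pools, and the difference was 1.45 (SE 0.34; limma adjusted p = 0.33, and 0.0294 with pool number as a block). Ccng1, a p53 target that encodes cyclin G1, was at 0.76, 0.77 and 0.83 in WT and at 1.28, 1.43 and 1.44 in CKO. Its pools lay close together within each genotype, with a difference of 0.59 (SE 0.12; limma adjusted p = 0.192), and it was called on first arrays alone (limma adjusted p = 0.0291) and without the second array of WT pool 1 (limma adjusted p = 0.0417). Trp53 itself was at -3.58, -3.82 and -4.63 in WT and at -3.12, -3.29 and -3.46 in CKO. WT pool 3 was the lowest, and the difference of 0.72 (SE 0.30; limma adjusted p = 0.884) was 0.41 without it. Pmaip1, the pro-apoptotic protein Noxa, differed by 0.51 (SE 0.21; limma adjusted p = 0.892). The pools of all 4 lay higher in CKO without overlap, and these 4 were chosen by their unadjusted p.

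**Figure D5:**
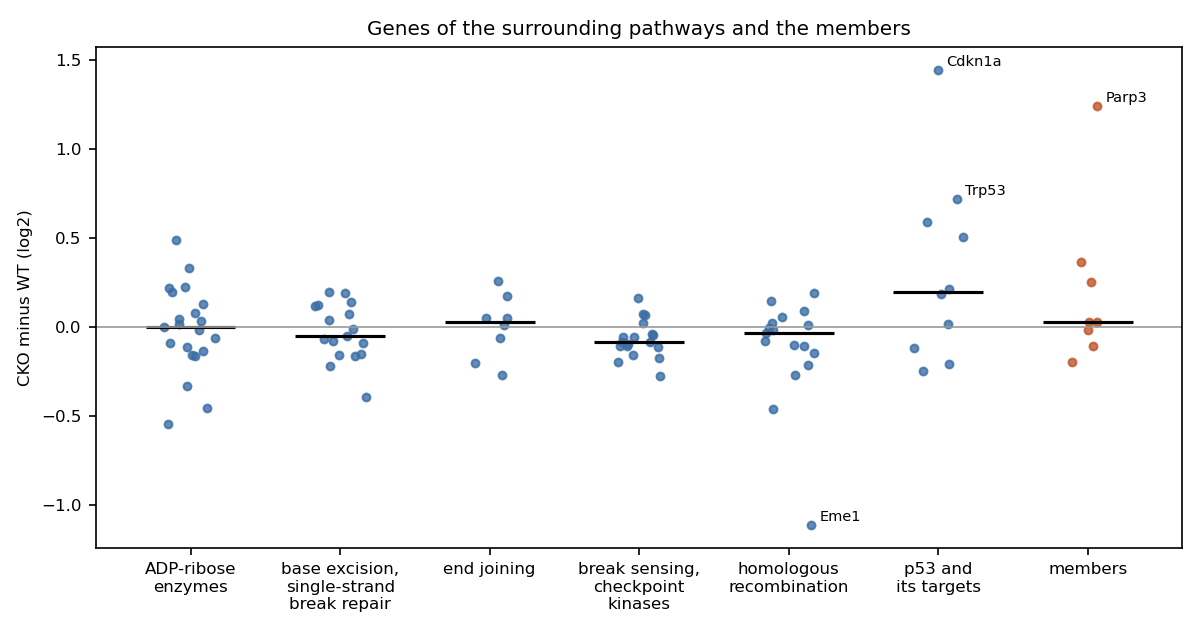
Difference between genotypes (CKO minus WT, log2 units) of every measured gene of the 6 pathway lists (blue) and of the 8 measured genes of the group itself (orange, labelled members), with black lines at the medians. Points are spread sideways at random. The medians lie between -0.08 and 0.20, and Eme1 (-1.11), Cdkn1a (1.45), Trp53 (0.72) and Parp3 (1.24) are the genes more than 0.6 from 0.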

How the data were processed

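Whole-hippocampus RNA of 3 WT and 3 CKO pools was measured on 8 Agilent 1-colour arrays in the Cy5 channel, on 2 slides of 4 arrays. Per the file headers, the deposited processed signal is an intensity that Feature Extraction (11.5 in the submitters' processing notes, 11.5.1.1 in the headers) background-subtracted and detrended within each array, not normalized between arrays. Other deposited columns were flags and raw intensities. The authors also deposited a value table of linear intensities in the rank order of the background-subtracted signal, whose scaling across arrays stays unknown; its array medians were 774.3, 944.0, 728.8 and 651.7 for WT (pool 1 on both arrays, pools 2 and 3) and 730.0, 782.7, 764.9 and 762.4 for CKO. It was an alternative.

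The log2 processed signal was taken relative to each array's 75th percentile over non-control spots, without outlier-flagged spots, averaged over spots and then over the arrays of a pool. RefSeq accessions named 27502 of 39429 probes, current symbols 3549 and synonyms 404, and 7974 kept the file's name; 23648 were kept, and a probe with several spots counted as well above background where 50% of them were. A gene was read by its brightest probe. Genotypes were compared with limma 3.58.1 (lmFit, eBayes with trend, two-sided, R 4.3.3), adjusted by Benjamini-Hochberg over 18335 genes at a threshold of 0.05, after a check on simulated data. An exact test of 3 pools against 3 cannot go below p = 0.1. The pools are of separate mice, and p-values measure the spread between pools. The array files name mm9, while the RefSeq promoters and the gene order are of GRCm38.p6, so no other coordinates are given.

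Pool numbers were taken to pair the samples in the block setting. Deviations from the genotype means correlated at 0.55, 0.33 and 0.13 across genes for pools 1, 2 and 3, against at most 0.12 between other numbers. With first arrays alone the values were 0.09, 0.08 and 0.12. The higher values thus needed the second arrays of pool 1, and these correlations do not establish the pairing. The labels link them by sex and age alone. The members and lists were chosen with earlier results of these data known. Named genes were all members, Ctcf, the 4 genes of smallest unadjusted p in each pathway list, the 3 nearest measured genes on either side of Parp3 and the 5 genes of profile nearest to Parp3; C1ql2, Wfs1, Slc17a7 and Gfap were named after their values were seen. One gene this rule takes is not reported here. Alternatives changed the block, scaling, background correction, value source, filter, slide, arrays of pool 1, probe rule, variance prior and pools.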

Additional observations from a re-analysis of the deposited data

Results flagged for a closer look

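In 2 probes of the group the pool of females (pool 2) and the pool of males (pool 3) differed between genotypes in opposite directions. For the Atm probe at base 8518, CKO minus WT was -0.20 log2 units in pool 2 and 1.14 in pool 3. WT pool 3 was the lowest array for that probe, and not well above background there, while the brighter Atm probe differed by -0.06 and -0.13 in the same pools. For Xrcc6 the difference was 0.064 in pool 2 and -0.34 in pool 3, with pool 1, of both sexes, at -0.31. Each sex is 1 pool per genotype and the pools also differ in age and slide, so the difference between sexes was not tested and cannot be told apart from those.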

How the results depend on the processing

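The limits are 3 pools per genotype and array signal close to background for Chek2, Brca1 and the repeated Atm probe. Eme1 in CKO pools (-4.21, -4.15 and -4.57) and Trp53 in WT pool 3 (-4.63) were also dim, though well above background on every array. The lowest level that counted as well above background ran from -5.51 to -4.25 across arrays. Over 20 alternatives the Parp3 difference stayed between 1.11 (normexp background) and 1.35 (slide 1 alone), and Parp1, Parp2, Xrcc5 and Xrcc6 kept their sign in all 20. Atm kept its sign in 12 of 20, Xrcc1 in 16 of 20 and Mre11a in 13 of 19. These counts include settings that left the differences as they were. The block, both filter settings and the variance prior changed only the SE, as did the probe rule for genes with 1 probe. A kept sign in those settings adds nothing. With pool number as a replicate block, the genes called rose from 5 to 103. The members called rose from 0 to 1 and the pathway genes called from 0 to 1, and no call changed among the Parp3 neighbours. The first array of each pool alone called 139 of 18904 genes, 1 member (Parp3) and 2 pathway genes (Eme1 and Ccng1). Leaving out the second array of WT pool 1 called 139 of 18736 genes, and the same member and pathway genes. The group was put together with this comparison known, so nothing is read from member calls in any setting. Genes called were 3 with the series value table, 12 on slide 1 alone and 0 on slide 2 alone. Leaving out 1 pool gave 0 to 21 genes called: 21 without WT pool 1, 2 without CKO pool 1, and 0 without WT pool 3 or without CKO pool 3. The cause of these changes was not tested, beyond the slide and single-pool settings holding fewer pools. The median difference over all genes stayed between -0.07 and 0.04.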
